A study of Mus musculus with 4 samples.

Results

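This account covers 10 genes that encode cell adhesion molecules of the immunoglobulin superfamily at the contact between axons and glia: Nfasc, Cntn1, Cntn2, Cadm1, Cadm2, Cadm3, Cadm4, Ncam1, Nrcam and L1cam. They were taken by symbol from the gene table of the series, and all 10 were found among its 35869 rows. RNA was sequenced from oligodendrocytes, the glial cells that make central myelin, sorted from mouse cortex at postnatal day 5 by the surface lipids O4 and GalC. There were 2 libraries from control mice (wild type, WT) and 2 from mice with a knock-in on both copies of Zfp488 (Zfp488KI/KI), which the labels call Zfp488 KO. The construction of that allele, the strain and the animals behind each library are not stated in the labels used here. Zfp488, a zinc finger gene of the oligodendrocyte lineage, had 6.61 and 5.29 FPKM in WT against 4.82 and 4.11 in KO. FPKM is the number of read fragments per kilobase of transcript, scaled to the mapped fragments of the library, so it gives a level per transcript length.

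Contactins are attached to the membrane by a lipid anchor and signal through partners. Axonal contactin-1, paired with the contactin-associated protein Caspr, binds the glial form of neurofascin at the paranode, the seal between the myelin sheath and the axon at each edge of a node of Ranvier. Contactin-2 works at the neighbouring juxtaparanode. The Cadm proteins, also called nectin-like proteins or SynCAMs, bind one another across the gap between axon and glia, and Cadm4 on the glial side pairs with Cadm3 on the axon. Ncam1, Nrcam and L1cam are widely used in neurite growth and cell contact, and Ncam1 carries polysialic acid in immature cells of the lineage.

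Depth was recovered approximately from steps in the low values. Per kilobase of transcript, 1 FPKM corresponded to roughly 37.1 and 43.8 fragments in the WT libraries and to 39.8 and 39.2 in the KO libraries. Defining markers of the sorted cells were abundant, with Olig1 between 1249 and 1487 FPKM and Sox10 between 242 and 333 FPKM. Markers of other cell types were present too. Summed over 20 neuron markers they came to 87.3 and 74.5 FPKM in WT and to 124 and 98.3 in KO. The 10 astrocyte markers summed to 126 and 246 FPKM in WT and to 182 and 344 in KO. For 10 microglia markers the sums were 61.5 and 133 in WT and 56.7 and 146 in KO. The 10 endothelial and mural markers summed to 25.6 and 66.6 FPKM in WT and to 42.2 and 71.0 in KO. Among them is Cspg4, which is also on the list of oligodendrocyte markers. Cldn5, of the same list, had 0 and 26.8 FPKM in WT and 0.035 and 26.3 in KO. Astrocyte, microglia, and endothelial and mural sums were thus higher in the library numbered 2 of each genotype. The labels do not tie any library to its own animal, and p-values therefore reflect only how these libraries vary, which may be technical.

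Windows upstream of 4 of the genes are shown. Cadm4 had the highest level of the 10, and Cntn1, Cadm3 and L1cam had WT and KO values that did not overlap. The values of Cadm1 and Nfasc did not overlap either. No window was found for Cadm1, and those of Nfasc, which was too low to be tested, are not printed. Each window holds the 250 bases before a transcription start in RefSeq GRCm38.p6, read 5′ to 3′ on the strand of the gene. Capitals mark the GC box, GGGCGG or its reverse CCGCCC.
Cadm4, chr7:24481773-24482022, plus strand: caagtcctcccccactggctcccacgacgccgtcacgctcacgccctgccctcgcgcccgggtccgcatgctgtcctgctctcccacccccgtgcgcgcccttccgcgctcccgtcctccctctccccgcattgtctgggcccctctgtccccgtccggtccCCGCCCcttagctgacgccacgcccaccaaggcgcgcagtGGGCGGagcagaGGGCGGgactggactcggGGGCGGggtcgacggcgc
Cntn1, chr15:92050915-92051164, plus strand: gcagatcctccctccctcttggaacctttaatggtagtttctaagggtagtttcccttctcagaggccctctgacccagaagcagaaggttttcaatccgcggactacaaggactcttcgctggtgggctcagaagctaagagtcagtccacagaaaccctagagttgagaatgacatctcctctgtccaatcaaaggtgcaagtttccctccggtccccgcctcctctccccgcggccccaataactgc
Cadm3, chr1:173367696-173367945, minus strand: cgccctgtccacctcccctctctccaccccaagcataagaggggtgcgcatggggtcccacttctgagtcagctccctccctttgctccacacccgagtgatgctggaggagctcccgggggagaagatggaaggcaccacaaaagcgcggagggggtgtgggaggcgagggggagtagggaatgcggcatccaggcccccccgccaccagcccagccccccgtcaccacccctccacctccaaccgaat
L1cam, chrX:73880835-73881084, minus strand: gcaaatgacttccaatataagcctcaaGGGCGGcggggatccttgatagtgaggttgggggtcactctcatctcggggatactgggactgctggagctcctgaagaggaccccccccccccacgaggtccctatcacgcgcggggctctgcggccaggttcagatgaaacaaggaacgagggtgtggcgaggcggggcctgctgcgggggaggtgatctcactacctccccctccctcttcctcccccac

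The Cadm4 window had a GC content of 75.2%, 30 CG dinucleotides and 4 GC boxes, against medians of 52.4% and 6 CG dinucleotides over the 32851 windows of the RefSeq table. The L1cam window had a GC content of 63.2%, 12 CG dinucleotides and 1 GC box. Cntn1 (53.6%, 7 CG dinucleotides) and Cadm3 (66.8%, 11 CG dinucleotides) had no GC box in these windows. A GC box on either strand occurred in 32.7% of all windows. The E-box CAGCTG, the Sox box ACAAAG and the TATA box TATAAA were also searched on both strands, and none of the 4 printed windows held any of them. RefSeq lists 3 start windows for Cntn1 and 2 for L1cam. One of the Cntn1 windows not printed, at chr15:92127878-92128127, holds a TATA box. Across all windows the E-box, the Sox box and the TATA box occurred in 13%, 16.5% and 12.4%. A match is a description of the letters only. Windows were found for 8 of the 10 genes.

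Among the 10 genes, Cadm4 had the highest level in every library. It had 86.9 and 72.3 FPKM in WT 1 and WT 2 against 111 and 65.3 FPKM in KO 1 and KO 2, which was between 63.2% and 71.0% of the summed FPKM of the 10 genes in each library. Surface adhesion genes outside the 10 reached similar levels, such as Itgb1, an integrin subunit, at 76.5 to 109 FPKM. Cntn1 came next in every library, with 14.4 and 19.2 FPKM in WT against 25.8 and 23.2 in KO. Cadm1, Cadm2 and Ncam1 formed a middle tier between 3.15 and 6.96 FPKM, and Cadm3 lay below it, between 1.16 and 3.10 FPKM. Nfasc, Nrcam and Cntn2 stayed under 1 FPKM in every library, and L1cam was under 1 FPKM in WT alone.

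**Figure D1:**
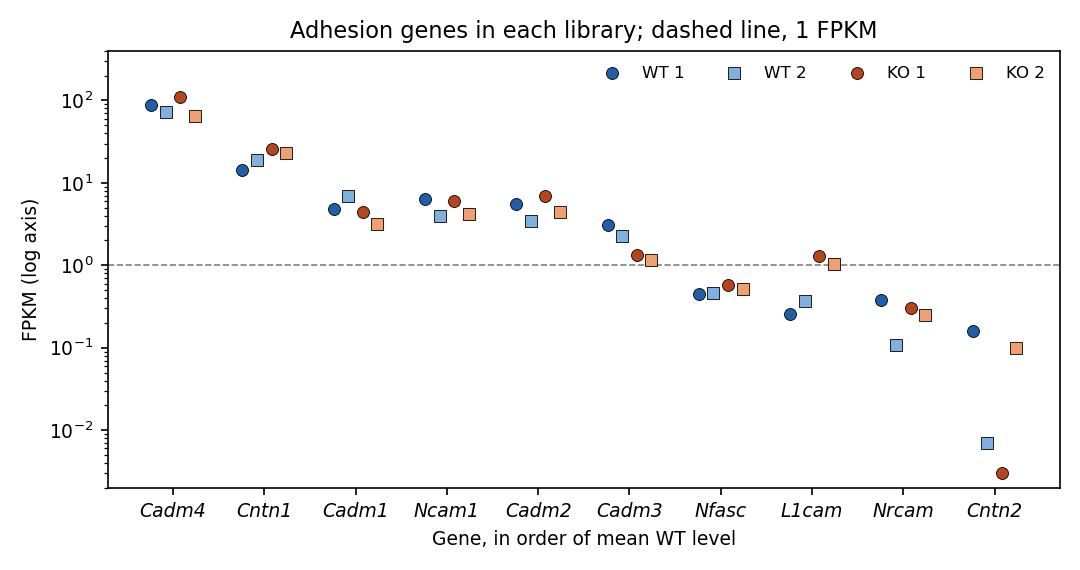
FPKM of each of the 10 adhesion genes on a log axis, 1 point per library, ordered by mean WT level; the dashed line is 1 FPKM. Cadm4 and Cntn1 lie above all others in each library, the KO points of L1cam lie above its WT points, and those of Cadm3 lie below.

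The order of mean levels in WT was Cadm4, Cntn1, Cadm1, Ncam1, Cadm2, Cadm3, Nfasc, L1cam, Nrcam and Cntn2. Library values of neighbours overlapped between Cadm1 and Ncam1, between Ncam1 and Cadm2, between L1cam and Nrcam, and between Nrcam and Cntn2, so these places are not resolved. In KO the middle tier read Cadm2, Ncam1 and Cadm1, again with overlapping values, and L1cam stood above Nfasc. The KO values of L1cam overlapped those of Cadm3, whereas in WT Cadm3 was at 2.68 ± 0.585 FPKM and L1cam at 0.314 ± 0.0834 FPKM (mean ± SD, n = 2).

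No adhesion gene passed the test between genotypes. Values were compared as log2(FPKM + 1) with limma over the 10754 rows that reached 1 FPKM in at least 2 libraries, with Benjamini-Hochberg adjustment over all of them. Of these rows, 0% had an adjusted p under 0.05 by limma (0 rows, smallest adjusted p = 0.859), and 608 rows, or 5.65%, had an unadjusted p under 0.05. Of the 10 genes 7 were tested, and 0 of them had an unadjusted p under 0.05. L1cam entered the test only through its KO libraries. Among the 7, both KO libraries lay above both WT libraries for 2 (Cntn1 and L1cam) and below for 2 (Cadm1 and Cadm3). The same arrangement held for 16.6% (above) and 18.3% (below) of all tested rows, 1780 and 1969 in number. With the libraries rescaled to TPM those counts were 2335 and 1408, while the 4 adhesion genes kept their arrangement. The median log2 fold change of the 7 was 0.10, against 8.1e-05 over all tested rows.

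**Figure D2:**
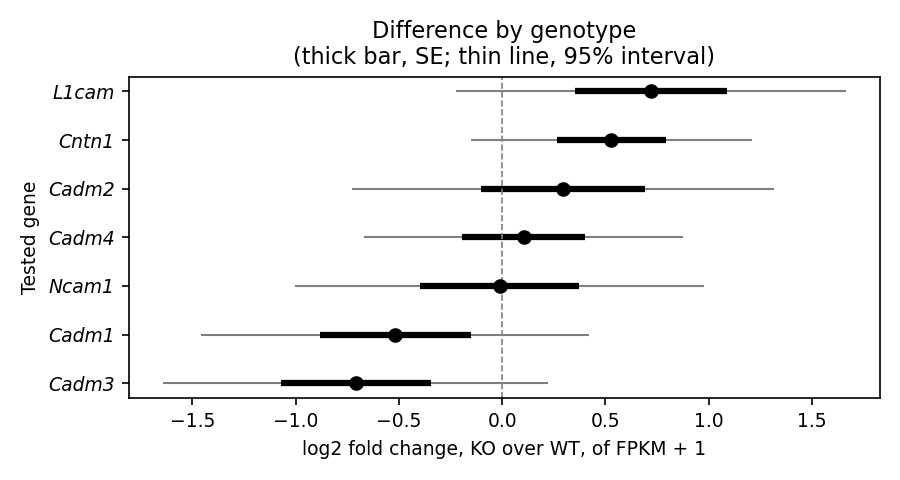
Log2 fold change of KO over WT for the 7 tested adhesion genes, on the scale of FPKM + 1, with the SE as a thick bar and the 95% interval from limma as a thin line. All 7 intervals include 0, from L1cam at 0.72 to Cadm3 at -0.71.

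Among the contactins, Cntn1 was higher in each KO library than in each WT library. Mean FPKM was 16.8 ± 3.35 in WT against 24.5 ± 1.80 in KO (SD, n = 2), a ratio of 1.46, resting on about 3040 to 5810 fragments per library. The log2 fold change was 0.53 (SE 0.26, 95% interval -0.15 to 1.21), which did not pass (limma adjusted p = 0.914). It was positive under all 13 alternatives, between 0.34 without WT replicate 1 and 0.72 without WT replicate 2. Leaving out a library could not turn the sign, since the groups of Cntn1 do not overlap. Cntn2 was close to undetected and uneven, with 0.161 and 0.007 FPKM in WT against 0.003 and 0.099 in KO. On its 7177 bp transcript these values stand for about 42.9, 2.2, 0.856 and 27.9 fragments, so no difference between genotypes was detectable at this depth.

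Ptprz1, a receptor tyrosine phosphatase of the lineage that binds contactin-1, had nearly the same profile as Cntn1. It had 12.1 and 15.6 FPKM in WT against 20.6 and 17.7 in KO, also without overlap (log2 fold change 0.45, SE 0.27, limma adjusted p = 0.918). The ratio of Cntn1 to Ptprz1 was 1.19 and 1.23 in the WT libraries and 1.25 and 1.31 in the KO libraries. Both genes are strongly expressed by oligodendrocyte precursors. Pdgfra, the receptor that defines precursors, had 18.5 and 26.8 FPKM in WT against 40.2 and 42.5 in KO, and its part in the values of Cntn1 was not tested.

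Partners of the axonal side were low or uneven between libraries. Cntnap1, which encodes Caspr, was at 0.004 and 0.006 FPKM in WT and was listed at 0 in both KO libraries. Cntnap2, the juxtaparanodal partner of contactin-2, had 0.072 and 0.545 FPKM in WT against 0.055 and 0.082 in KO. The WT 2 value stands for about 235 fragments, above the other 3 libraries. Cntnap4 was listed at 0 in both WT libraries and was at 0.741 and 1.22 FPKM in KO. The WT values of Cntnap1 stand for about 0.808 and 1.43 fragments, so no difference was detectable at this depth. The program behind the FPKM is not known, and an exact 0 may be a failed estimate. No fold is therefore given for Cntnap1 or Cntnap4.

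Nfasc, whose glial form anchors the paranodal loops of mature oligodendrocytes, was listed at low values. It had 0.445 and 0.463 FPKM in WT against 0.581 and 0.514 in KO. Both KO values lay above both WT values, by a ratio of means of 1.21, but the gene did not reach the level set for testing. Because its transcript is 9739 bp long, these values still stand for about 161 to 225 fragments per library. The table gives 1 value per gene and does not separate the glial from the neuronal form. The annotation behind the FPKM is not known, and its effect on the Nfasc value was not tested. Genes of membrane scaffolds found at the paranode were also low, with Ank3 (ankyrin-G) between 0.046 and 0.078 FPKM and Epb41l3 (protein 4.1B) between 0.321 and 0.68 FPKM.

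L1cam had the largest positive log2 fold change of the 7 tested genes with the values as deposited. It had 0.255 and 0.373 FPKM in WT against 1.29 and 1.04 in KO, and the groups did not overlap. On its 5126 bp transcript this is about 48.5 and 83.8 fragments in WT against 264 and 209 in KO. The ratio of the mean FPKM was 3.71, while the log2 fold change on the FPKM + 1 scale was 0.72 (SE 0.37, 95% interval -0.22 to 1.66), which did not pass (limma adjusted p = 0.914). The pseudocount sets much of that size: with 0.1 in place of 1 the log2 fold change was 1.62 (SE 0.99), after rescaling to TPM it was 1.28, and after quantile normalization it was 0.48, below the 0.52 of Cntn1. RefSeq places the gene on the X chromosome, from 73853778 to 73880838 (GRCm38.p6), and no other gene there overlaps it.

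L1cam is also a gene of neurons, and the summed neuron markers given above were higher in both KO libraries. Of 8 tested neuron markers, 4 (Snap25, Stmn2, Syp and Dlx2) lay above WT in both KO libraries and 0 lay below, where 16.6% and 18.3% of all tested rows did. Dlx2 entered the test only through its KO libraries. Syt1 was too low to be tested and was lower in both KO libraries, at 0.225 and 0.251 FPKM against 0.316 and 0.354 in WT. Stmn2, a microtubule regulator of growing axons, had 1.35 and 0.503 FPKM in WT against 3.67 and 6.57 in KO. Snap25, a SNARE protein of synapses, had 3.46 and 5.06 FPKM in WT against 6.84 and 6.82 in KO. Other well-detected markers overlapped between genotypes. Syn1 had 12.4 and 19.5 FPKM in WT against 18.4 and 13.7 in KO, Npy had 29.4 and 15.7 against 32.6 and 7.04, and Nefl and Nefm overlapped too. Among other markers that were not tested, Rbfox3 reached at most 0.084 FPKM, Slc17a7 at most 0.031 FPKM and Slc17a6 at most 0.002 FPKM in any library. Sst and Neurod6 had 4.36 and 3.06 FPKM in KO 1 and were listed at 0 in the other libraries. Gad2 had 0.003 and 0.764 FPKM in WT against 0 and 1.34 in KO, and Gad1 had 0.261 and 0.922 against 0.419 and 0.661. Dlx5 had 0.517 and 0.543 FPKM in WT against 0 and 1.31 in KO. The part of neuronal RNA in the L1cam values was not tested. In bulk samples, more cells of a type and more RNA per cell cannot be told apart.

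Nrcam and Chl1, the L1 family genes that remain, did not separate the genotypes. Nrcam, a partner of neurofascin at nodes, had 0.381 and 0.108 FPKM in WT against 0.301 and 0.249 in KO, with both KO values inside the WT range. Chl1 had 0.776 and 0.896 FPKM in WT against 0.71 and 0.911 in KO. Of the 52 other tested genes among the adhesion genes and the 5 related lists, Fgfr1 was closest in profile to L1cam over the 4 libraries. Its root mean square difference from L1cam, on centred log2(FPKM + 1), was 0.077. Cntn1 (0.13) and Ptprz1 (0.16) came next. Fgfr1, a receptor that L1 and NCAM family proteins can engage, had 0.651 and 0.639 FPKM in WT against 1.83 and 1.32 in KO. Fgfr1 and L1cam both entered the test only through their KO libraries. Each therefore had to lie under 1 FPKM in WT and to reach it in KO, and their likeness is a description only.

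The 4 Cadm genes are given one by one, since all 4 intervals include 0 and overlap one another. Cadm4, the glial member of the family, showed no separation: the KO libraries, at 111 and 65.3 FPKM, lay on either side of both WT libraries. Its log2 fold change was 0.10 (SE 0.30, 95% interval -0.67 to 0.88, limma adjusted p = 0.994), and the sign turned without WT replicate 2 (-0.027) and without KO replicate 1 (-0.28). A change of the size of that interval in either direction is not excluded by 2 libraries a group.

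Cadm3, the axonal partner of Cadm4, was lower in each KO library. It had 3.10 and 2.27 FPKM in WT against 1.32 and 1.16 in KO, about 592 and 512 fragments against 271 and 234. The ratio of WT to KO means was 2.16, and the log2 fold change was -0.71 (SE 0.36, 95% interval -1.64 to 0.22), which did not pass (limma adjusted p = 0.914). It stayed negative under all 13 alternatives, between -1.04 with a pseudocount of 0.1 and -0.55 without WT replicate 1. Neither of these changes could turn the sign, since the groups of Cadm3 do not overlap. Closest to it in profile among the same 52 genes were Aplp1 (0.20), Tmem108 (0.20) and Ncam2 (0.21), by the same measure.

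Cadm1, which binds other nectin-like proteins across cell contacts, had 4.80 and 6.94 FPKM in WT against 4.41 and 3.15 in KO. The KO values lay below both WT values, though KO 1 and WT 1 were close. The log2 fold change was -0.52 (SE 0.37, 95% interval -1.46 to 0.42, limma adjusted p = 0.928), and it was -0.29 without WT replicate 2. Cadm2 did not separate the groups, with 5.56 and 3.43 FPKM in WT against 6.96 and 4.48 in KO (log2 fold change 0.29, SE 0.40, limma adjusted p = 0.983), and without WT replicate 2 its log2 fold change was 0.0099. The ratio of Cadm2 to Cadm1 was 1.16 and 0.494 in WT and 1.58 and 1.42 in KO.

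Ncam1 was nearly equal in the 2 genotypes and differed between libraries within each. It had 6.41 and 3.96 FPKM in WT 1 and WT 2 against 5.99 and 4.18 FPKM in KO 1 and KO 2. Between genotypes the log2 fold change was -0.011 (SE 0.38, 95% interval -1.0 to 0.98, limma adjusted p = 0.998). Library 1 exceeded library 2 by a factor of 1.62 in WT and 1.43 in KO. For Cadm2 those factors were 1.62 and 1.55, and for Cadm4 they were 1.20 and 1.70. For these 3 genes the values therefore followed the library number more than the genotype.

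Rows that overlap 4 of the adhesion genes limit how far their values can be separated. The gene Gm10677, a long non-coding RNA inside Cadm1 (chromosome 9, 47799160 to 47818208), was at 7.95, 7.12, 6.82 and 7.21 times the FPKM of Cadm1 in the 2 WT and the 2 KO libraries, in this order. For 1700010K23Rik, a non-coding RNA inside Cadm2 (chromosome 16, 66657118 to 66664626), the ratio to Cadm2 was 15.7, 16.5, 16.3 and 16.0. Gm11149, inside Ncam1 (chromosome 9, 49518288 to 49568025), was at 25.1, 23.01, 24.4 and 25.8 times the FPKM of Ncam1. Each ratio thus stayed nearly constant while the FPKM of the adhesion genes varied between libraries.

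In GENCODE M21, 68.1% of the 376 exonic bases of 1700010K23Rik and 13.0% of the 3198 exonic bases of Gm11149 are also exonic in Cadm2 and Ncam1, on the opposite strand. The shared bases number 256 for Cadm2 and 417 for Ncam1. No strand setting of the counting is given in the sources used, so reads in these shared bases cannot be told apart. Their part in the values of Cadm2 and Ncam1 was not tested, and the levels of both genes are uncertain to that extent. Gm10677 was not found by that symbol in GENCODE M21, so its exon overlap with Cadm1 was not assessed. Whether reads of Gm10677 enter the value of Cadm1 was not tested, so the level of Cadm1 carries that limit. Ackr1, a chemokine receptor gene on the same strand as Cadm3, shares 361 exonic bases with it. It had 14.4 and 5.62 FPKM in WT against 0.866 and 3.15 in KO, so it too was lower in both KO libraries. Its ratio to Cadm3 ranged from 0.655 in KO 1 to 4.64 in WT 1. The part of Ackr1 reads in the Cadm3 values was not tested. Rows inside Nfasc (Gm10538) and Cntn1 (Gm36901) reached at most 0.013 and 0.207 FPKM.

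**Figure D3:**
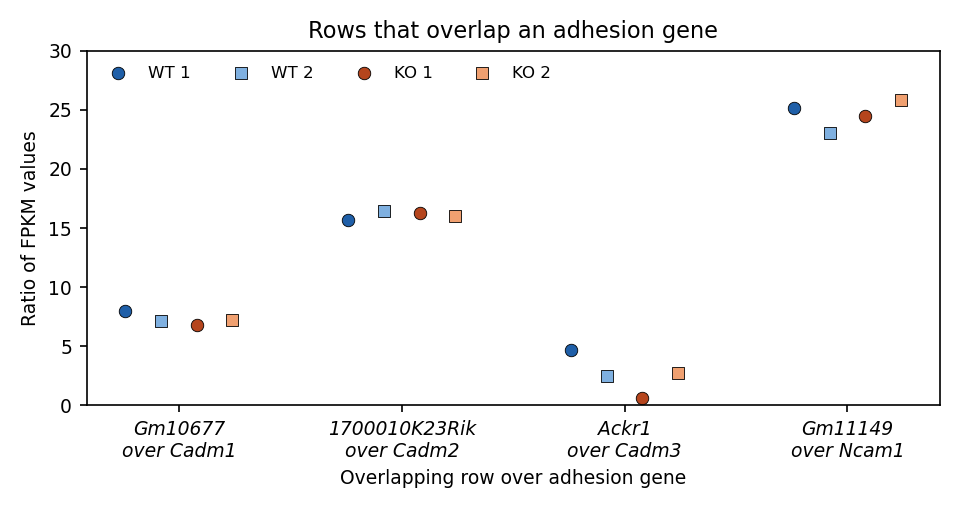
Ratio of the FPKM of a row that overlaps an adhesion gene to the FPKM of that gene, 1 point per library. The ratios of Gm10677 (6.82 to 7.95), 1700010K23Rik (15.7 to 16.5) and Gm11149 (23.01 to 25.8) vary little between libraries, and that of Ackr1 to Cadm3 varies from 0.655 to 4.64.

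Related genes were read from 5 lists made by function, and 0 of their tested genes passed the adjusted threshold by limma. Counts of genes whose groups did not overlap are read beside the shares over all tested rows, 16.6% above and 18.3% below. In lists this short they are descriptions only. Among 8 tested relatives of these families, both KO libraries were above for 2, below for 1, and overlapped WT for 5 (median log2 fold change 0.48). Cntn6, a neuronal contactin, had 1.26 and 0.682 FPKM in WT against 2.48 and 1.95 in KO, and Igsf8, a tetraspanin-associated surface protein, had 61.1 and 92.4 FPKM in WT against 104 and 97.4 in KO. Nectin3 was the 1 below, with 1.94 and 1.60 FPKM in WT against 1.08 and 1.45 in KO. Ncam2 had 17.2 and 13.3 FPKM in WT against 13.6 and 9.30 in KO, with overlap. Cntn3 and Cntn4 reached at most 0.15 and 0.555 FPKM.

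Of 9 tested surface partners, 3 were above and 1 below in both KO libraries (median 0.17). Ptprz1, Fgfr1 and the pleiotrophin gene Ptn, a ligand of Ptprz1, were the 3 above, of which Fgfr1 entered the test only through its KO libraries. Ptn had 248 and 299 FPKM in WT against 311 and 351 in KO (log2 fold change 0.28, SE 0.15). Aplp1, an amyloid precursor-like protein, was the 1 below, with 260 and 225 FPKM in WT against 210 and 140 in KO (-0.50, SE 0.23).

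Membrane scaffolds had 10 tested genes, of which 3 were above and 1 below in both KO libraries (median 0.13). Mpp1, a MAGUK scaffold, varied most, with 0.521 and 3.01 FPKM in WT against 10.6 and 3.17 in KO. Its KO 2 value was close to its WT 2 value. Mpp3 was the 1 below, with 3.43 and 3.2 FPKM in WT against 1.34 and 2.97 in KO. Rdx was above, with 11.0 and 13.3 FPKM in WT against 18.1 and 13.4 in KO.

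Enzymes of polysialic acid and shedding had 3 of 5 tested genes above and 0 below in both KO libraries (median 0.41). St8sia3, a sialyltransferase, had 11.7 and 17.5 FPKM in WT against 23.4 and 22.5 in KO (log2 fold change 0.64, SE 0.29, limma adjusted p = 0.902). Adam10, a protease that sheds L1 and NCAM family proteins, had 5.10 and 5.44 FPKM in WT against 7.26 and 7.35 in KO. Adam17 had 1.26 and 2.88 FPKM in WT against 3.04 and 2.96 in KO. The polysialyltransferases of NCAM were low: St8sia4 had 0.004 and 0.17 FPKM in WT against 0.323 and 0.88 in KO, and St8sia2 exceeded 0.002 FPKM in KO 2 alone, at 1.06 FPKM.

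The list of other genes of the contact between oligodendrocyte and axon had 14 tested genes, 2 above and 3 below in both KO libraries (median -0.18). Cdh2, which encodes N-cadherin, had 4.34 and 7.23 FPKM in WT against 14.7 and 11.3 in KO (log2 fold change 1.07, SE 0.36, limma adjusted p = 0.859). Rtn4r, the Nogo receptor, had 0.043 and 0.292 FPKM in WT against 1.18 and 3.55 in KO. It entered the test only through its KO libraries. Mag, the myelin-associated glycoprotein that faces the axon, had 32.0 and 19.3 FPKM in WT against 17.9 and 3.46 in KO (-1.50, SE 0.74, limma adjusted p = 0.914). Tmem108 had 8.31 and 6.81 FPKM in WT against 5.34 and 2.97 in KO.

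**Figure D4:**
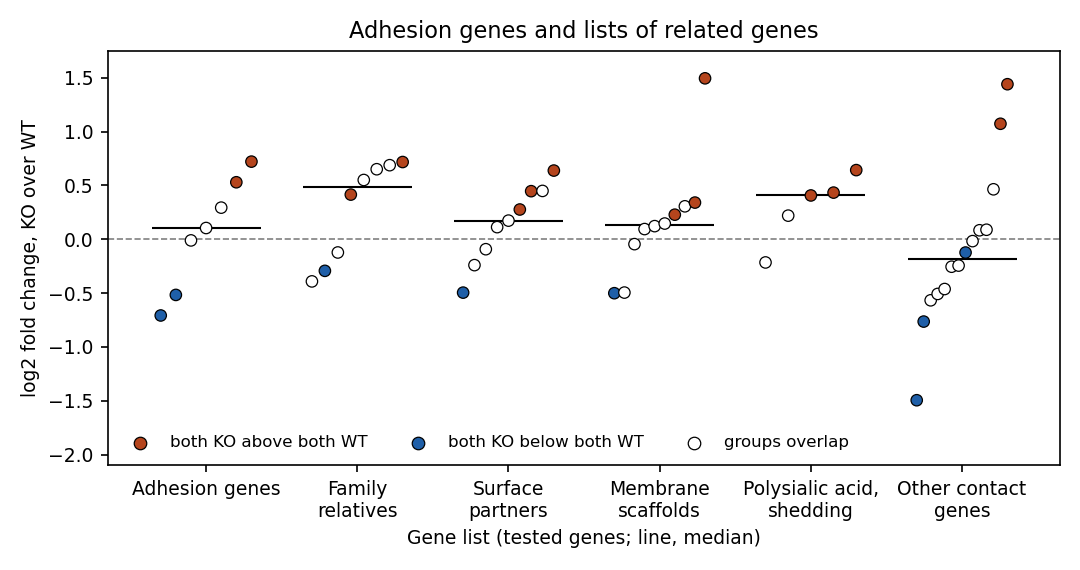
Log2 fold change of KO over WT for each tested gene of the adhesion group and of 5 lists of related genes; the line is the median of a list, and filled points are genes whose KO and WT libraries do not overlap. The medians lie between -0.18 for other contact genes and 0.48 for family relatives, and each list holds genes on both sides of 0.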

How the data were processed

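RNA of sorted mouse oligodendrocytes was measured in 4 libraries, 2 WT and 2 KO, grouped by the genotype label. The authors deposited FPKM, 1 column per library with 3 decimals, per the file headers. The submitters' processing notes name TopHat, without a version, and the mm10 build; the program behind the FPKM, its annotation, strand setting and filters are not given there. Members, gene lists, the rule for named genes, tests and alternatives were chosen with earlier results of these data known. The 10 adhesion genes were always named. Zfp488, 12 related genes and, from each of 5 lists, up to 3 genes with the largest absolute log2 fold change among those whose groups did not overlap were named too. Cntnap4, Ptn, Tmem108, Pdgfra, Ackr1, the markers and the overlapping rows were added after their values were seen.

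Values were analysed as log2(FPKM + 1), so folds of low genes are understated. Rows with at least 1 FPKM in at least 2 of 4 libraries entered the test in limma (version 3.58.1, R 4.3.3) (mean-variance trend, Benjamini-Hochberg adjustment over all tested rows, threshold 0.05, two-sided). The procedure was tested on simulated data. With 2 libraries against 2 an exact two-sided permutation test cannot give a p below 0.333, so none was used. Fragment numbers were derived from the modes of low FPKM times the longest coding transcript in GENCODE M21. They are approximate, since the authors' transcript lengths are unknown, and no counts were rebuilt. Gene positions, neighbours and windows came from RefSeq GRCm38.p6. Alternatives changed the pseudocount, filter, scaling, variance trend, level or length trend, replicate block or the libraries used.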

Additional observations from a re-analysis of the deposited data

How the results depend on the processing

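By limma, 0 genes passed the adjusted threshold in the study as a whole under each alternative that kept 2 libraries a group. The smallest adjusted p by limma lay between 0.413 with the replicate block and 0.998 with the length trend removed. The lack of a call thus held across these settings, but with 2 libraries a group it does not exclude a difference. The directions of Cntn1, Cadm1 and Cadm3 held under all 13 alternatives and that of L1cam under the 12 that tested it. The groups of these genes did not overlap, so leaving out a library or changing the pseudocount could not turn their sign. Changing the filter, variance trend or block leaves the log2 fold change itself unchanged. The count of alternatives is therefore a description only. Cadm2 was at 0.0099 without WT replicate 2, 0.024 without KO replicate 1 and 0.58 without WT replicate 1, so its direction is not settled. Ncam1 turned to 0.083 after rescaling to TPM, and without 1 library its log2 fold change lay between -0.30 and 0.28. That of Cadm4 lay between -0.28 and 0.48. The number of tested adhesion genes above WT in both KO libraries was 1 when 1 FPKM was required in all 4 libraries, because L1cam then left the test, and between 2 and 4 without 1 library. The number below lay between 2 and 3. Without 1 library, 30.5% to 35.5% of all tested rows lay above and 32.7% to 36.6% below, so the larger counts say nothing particular about these genes. The median log2 fold change of the tested adhesion genes lay between -0.23 without KO replicate 1 and 0.48 without KO replicate 2, so its sign rests on single libraries; the cause was not tested. Where a group kept 1 library, that library was assumed to vary like the other group. The replicate numbers of the titles pair no samples by anything in the labels. Deviations of same-numbered libraries correlated with r = 0.29 across tested genes, which are not independent replicates. With the replicate block 1025 genes had an unadjusted p under 0.05, against 608 without it, and 0 passed after adjustment. The log2 fold change of Cntn1 stayed at 0.53 with the block (SE 0.26, adjusted p = 0.605). Depth limits Cntn2 most, with at most about 42.9 fragments in a library.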
